A study of Mus musculus with 32 samples.

Results

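Immediate early genes are switched on within minutes of a signal, without new protein synthesis, and many encode transcription factors that set off later waves of transcription. The genes described here are 10 transcription factor genes grouped as immediate early: Egr1, Egr2, Egr3, Fos, Fosb, Fosl1, Jun, Junb, Atf3 and Nr4a1. They were chosen by name, with earlier results of these data known, so their shares of calls are descriptions. Each was found on the array under its name with 1 probe, among 24082 genes named there. Of the 10 genes, 9 gave enough signal to be tested, among 16037 genes tested in all, and Egr3 did not. FOS and JUN proteins pair to form the factor AP-1, ATF3 can pair with JUN proteins, the EGR proteins are zinc finger factors that bind GC-rich sites, and NR4A1 is an orphan nuclear receptor. In macrophages many immediate early genes are targets of MAP kinase signalling downstream of pattern recognition receptors. For some of them this runs through serum response elements, which hold a CArG box bound by SRF, or cyclic AMP response elements (CREs) bound by CREB family factors.

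The cells were primary macrophages grown from mouse bone marrow (BMDMs), from C57BL/6 animals (WT) or from Ifnar1-/- animals, in which the receptor for type I interferons is disrupted. Cells of each genotype were left untreated, given zVAD alone, or given LPS or IFNβ, either alone, together with zVAD, or together with both zVAD and Nec-1, and RNA was taken at 6 h. LPS is a bacterial ligand of TLR4. zVAD blocks caspases, which makes LPS or IFNβ a stimulus of necroptosis, and Nec-1 (necrostatin-1) blocks the RIPK1 kinase that this form of cell death needs. By the labels, the dose of LPS was 100 ng/mL and that of IFNβ was 1000 U/mL, and other doses stand elsewhere in the sources used here. The 2 genotypes and 8 treatments make 16 groups of 2 one-colour arrays (32 arrays), and values are log2 intensities after quantile normalization. The labels do not say that the 2 arrays of a group came from separate cultures, so a p-value measures the spread between these arrays, which may be technical, and in bulk RNA fewer cells expressing a gene and less RNA per cell cannot be told apart.

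The 32 arrays lie on 4 slides, and a slide carries all 8 treatments of a single genotype and replicate number. WT replicate 1 was scanned on day 1, WT replicate 2 on day 2 and all Ifnar1-/- arrays on day 3, with days numbered in order of scanning. In WT cells a slide thus also stands for a scan day. Genotype therefore cannot be told apart from slide or scan day in the levels. Only changes within a genotype, or differences between such changes, were tested. All 9 macrophage markers, among them Emr1, Csf1r and Cd68, were well above background on all 32 arrays. Markers of other cells were in part detected on all arrays as well. These were 5 of 6 neutrophil, 4 of 6 fibroblast, 2 of 4 B cell, 2 of 5 dendritic cell, 1 of 5 T and NK cell and 0 of 4 mast cell and basophil genes. Among them the dendritic cell marker Siglech read 15.13 to 16.46 and the T cell marker Cd3e 9.98 to 11.87. No neutrophil marker was called in any step with zVAD or Nec-1 (limma). Among B cell and fibroblast markers at most 1 was called in each step on LPS. The part of other cells in the results was not tested. Ifnar1 itself was lower on every Ifnar1-/- array than on every WT array with 2 of its 3 probes, at 5.82 to 7.33 against 7.90 to 10.24 and at 7.28 to 8.73 against 9.94 to 11.87, and the third probe overlapped between the genotypes. One array goes against its label. Over 764 genes other than the 10, each raised by LPS in both genotypes by more than 1 log2 unit, the array labelled Ifnar1-/- LPS+zVAD+Nec-1 replicate 2 had a median 0.03 above untreated Ifnar1-/- cells, beside 1.45 for replicate 1 of the same group and 1.66 to 2.21 for the Ifnar1-/- LPS and LPS+zVAD arrays. The 2 arrays of that group had a median absolute difference of 0.51 over the genes tested, against 0.20 to 0.38 in the other groups, and the calls of the 9 genes in that group are also given without this array.

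On the mm9 build the probes lie at chr10:67004798-67004857 for Egr2, chr12:86817900-86817959 for Fos, chr7:19888168-19888227 for Fosb, chr19:5455496-5455555 for Fosl1, chr4:94716928-94716987 for Jun, chr8:87501881-87501940 for Junb, chr1:192994547-192994606 for Atf3 and chr15:101105071-101105130 for Nr4a1. Fos is read by 10 spots on each array and every other gene by 1.

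The promoter sequences below show elements that were searched for. They are RefSeq windows of the 250 bases before a transcript start on the GRCm38.p6 build, shown for Egr2, one of the genes with the largest response to zVAD, for Nr4a1, and for Fos, which behaved differently. Capitals mark a CArG box, or TGACG on either strand (read as CGTCA on the other), which is a part of a CRE.
Egr2, chr10:67537620-67537869, + strand: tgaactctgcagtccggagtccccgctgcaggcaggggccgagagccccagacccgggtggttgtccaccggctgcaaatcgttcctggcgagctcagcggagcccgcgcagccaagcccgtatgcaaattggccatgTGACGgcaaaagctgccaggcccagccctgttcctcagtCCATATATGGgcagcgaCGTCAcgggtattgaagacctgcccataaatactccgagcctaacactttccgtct
Nr4a1, chr15:101266596-101266845, + strand: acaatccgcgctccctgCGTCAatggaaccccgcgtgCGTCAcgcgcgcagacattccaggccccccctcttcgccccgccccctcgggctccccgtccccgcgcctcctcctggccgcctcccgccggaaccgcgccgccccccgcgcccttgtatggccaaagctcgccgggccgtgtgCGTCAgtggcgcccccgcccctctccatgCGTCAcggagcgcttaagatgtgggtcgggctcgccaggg
Fos, chr12:85473640-85473889, + strand: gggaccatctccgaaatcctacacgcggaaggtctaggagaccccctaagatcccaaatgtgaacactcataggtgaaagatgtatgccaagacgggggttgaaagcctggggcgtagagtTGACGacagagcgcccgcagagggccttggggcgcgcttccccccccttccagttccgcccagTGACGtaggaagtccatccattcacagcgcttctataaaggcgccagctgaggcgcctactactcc
TGACG occurred in a window of 6 of the 7 genes present in the promoter table (Atf3, Egr2, Fos, Fosb, Junb and Nr4a1, but not Jun) and in 17.8% of all 32851 promoter windows of this length. Nr4a1 holds 4 copies. A gene is counted where any of its windows holds the motif, while the shares are per window. Egr2 has several windows, of which some lack TGACG or the CArG box. The CArG box, searched on both strands, occurred in windows of Egr2 only, beside 1.47% of all windows, and the full CRE, TGACGTCA, which holds TGACG, in 0 of the 7 genes beside 1.55%. An EGR site written GCGNGGGCG was found in Fosb and Nr4a1 (4.7% of all windows), and the AP-1 site TGAGTCA in 0 of the 7 (4.46%). A match to letters is a description, and elements further from the start, or in the genes not in that table (Egr1, Egr3 and Fosl1), were not looked at. A window without a CArG box, as for Fos, therefore does not show that the gene lacks one.

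**Figure D1:**
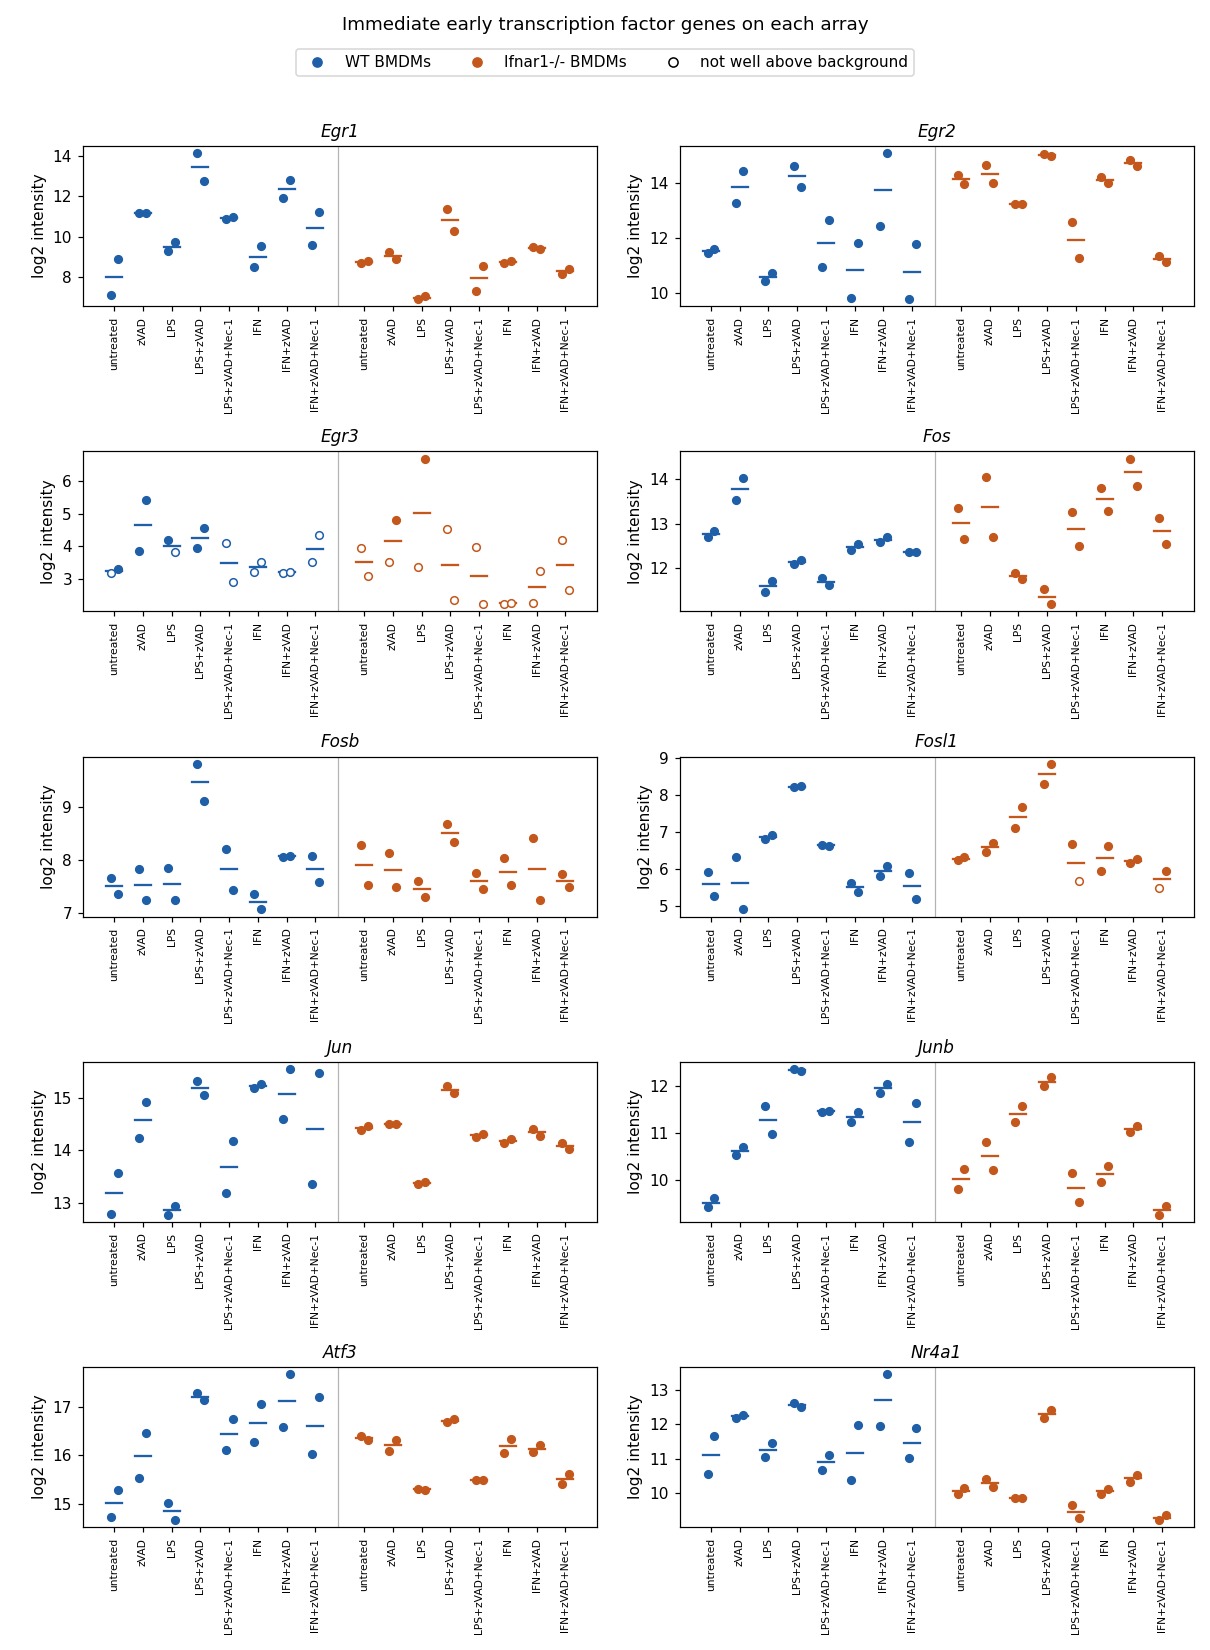
Log2 intensity (y axis) of each of the 10 genes on each of the 32 arrays, by treatment (x axis), with WT BMDMs on the left and Ifnar1-/- BMDMs on the right of each panel; points are arrays, replicate 1 left of replicate 2, bars are means of 2 arrays, and open points were not well above background. With LPS+zVAD, Egr1 read 14.13 and 12.76 in WT cells and 11.37 and 10.27 in Ifnar1-/- cells, its highest means in each genotype, while Egr3 was well above background on 8 of the 32 arrays.

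zVAD added to LPS raised 8 of the 9 tested genes in WT BMDMs, where 12.9% of all genes tested were called higher (limma, adjusted p under 0.05). Their median change was 1.91 on the log2 scale, against -0.04 for all genes. Egr1 and Egr2 had the largest changes, and Fos was the only tested gene of the 9 not called.

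Egr1, a zinc finger factor induced by growth factors and stress, read 9.29 and 9.72 with LPS (replicates 1 and 2) and 14.13 and 12.76 with LPS+zVAD. The groups do not overlap, and the difference was 3.94 ± 0.60 (log2 ± SE, adjusted p = 5.25e-05), or 15.4-fold. Egr2, which has roles in myeloid and nerve development, went from 10.43 and 10.71 to 14.62 and 13.86, a difference of 3.67 ± 0.78 (adjusted p = 0.00109). Both replicates of both genes moved the same way.

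Of the AP-1 subunits, Fosb read 7.85 and 7.24 with LPS and 9.80 and 9.11 with LPS+zVAD, a rise of 1.91 ± 0.39 (adjusted p = 0.000731). Fosl1, which encodes FRA-1, rose from 6.80 and 6.92 to 8.21 and 8.25, by 1.37 ± 0.40 (adjusted p = 0.0115). Fos itself read 11.46 and 11.71 and then 12.09 and 12.17, a difference of 0.55 ± 0.36 (adjusted p = 0.278). The groups for Fos do not overlap, and with the slide as a replicate block the difference passed the test (adjusted p = 0.0353). Jun, the founding partner of the FOS proteins, rose from 12.77 and 12.93 to 15.32 and 15.06, by 2.34 ± 0.46 (adjusted p = 0.000646). Junb, a JUN protein that activates more weakly at many sites, rose from 11.59 and 10.99 to 12.37 and 12.33, by 1.06 ± 0.28 (adjusted p = 0.00556).

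Atf3, a stress-induced factor that restrains TLR-driven cytokine genes, rose from 15.03 and 14.68 to 17.28 and 17.13, by 2.35 ± 0.39 (adjusted p = 0.000113), and Nr4a1 from 11.05 and 11.45 to 12.61 and 12.50, by 1.31 ± 0.46 (adjusted p = 0.0345). Nr4a1 is the least firm of these calls: without any 1 of the 4 arrays its adjusted p was 0.0703 to 0.16. Fosl1 was also not called without LPS replicate 1 (0.054) or LPS+zVAD replicate 2 (0.0647), nor Junb without LPS replicate 2 (0.11), while Egr1, Egr2, Fosb, Jun and Atf3 were called without each array in turn.

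In Ifnar1-/- BMDMs zVAD added to LPS raised 4 of the 9 genes, beside 4.75% of all genes called higher, with a median change over the 9 of 1.40 against -0.06 for all genes. Egr1 went from 6.92 and 7.04 to 11.37 and 10.27, a difference of 3.84 ± 0.60 (adjusted p = 0.000485). Nr4a1 went from 9.86 and 9.87 to 12.19 and 12.43, by 2.44 ± 0.46 (adjusted p = 0.00258), and these were its only 2 Ifnar1-/- arrays above 10.54. Jun rose by 1.77 ± 0.46 (adjusted p = 0.0221) from 13.36 and 13.40 to 15.22 and 15.09, and Atf3 by 1.40 ± 0.39 (adjusted p = 0.029) from 15.31 and 15.30 to 16.68 and 16.74. Without any 1 of the 4 arrays Jun (adjusted p = 0.0885 to 0.16) and Atf3 (0.126 to 0.157) were not called, which left 2 genes, Egr1 and Nr4a1.

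The other 5 genes did not pass in Ifnar1-/- cells. Egr2 read 13.24 and 13.24 with LPS and 15.04 and 14.96 with LPS+zVAD (difference 1.76 ± 0.78, adjusted p = 0.188). Fosb differed by 1.05 ± 0.39 (adjusted p = 0.105), Fosl1 by 1.17 ± 0.40 (0.0776) and Junb by 0.69 ± 0.28 (0.14). Fos pointed the other way, from 11.88 and 11.75 to 11.52 and 11.18 (difference -0.46 ± 0.36, adjusted p = 0.534). With the replicate block 7 genes were called, the 3 added being Egr2 (adjusted p = 0.0397), Fosb (0.00188) and Fosl1 (0.0358).

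The size of the zVAD change on LPS was compared between the genotypes by the difference of differences (Ifnar1-/- minus WT). None of the 9 passed, where 3.59% of all genes were called, and 0 of the 9 had an unadjusted p under 0.05 against 16.7% of all genes (limma). For Egr1 the difference was -0.10 ± 0.85, for Egr2 -1.92 ± 1.1 and for Nr4a1 1.13 ± 0.65, and with these errors the test does not show that the changes were equal. With the replicate block 1 gene was called, Fos (-1.01 ± 0.29, adjusted p = 0.0291).

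**Figure D2:**
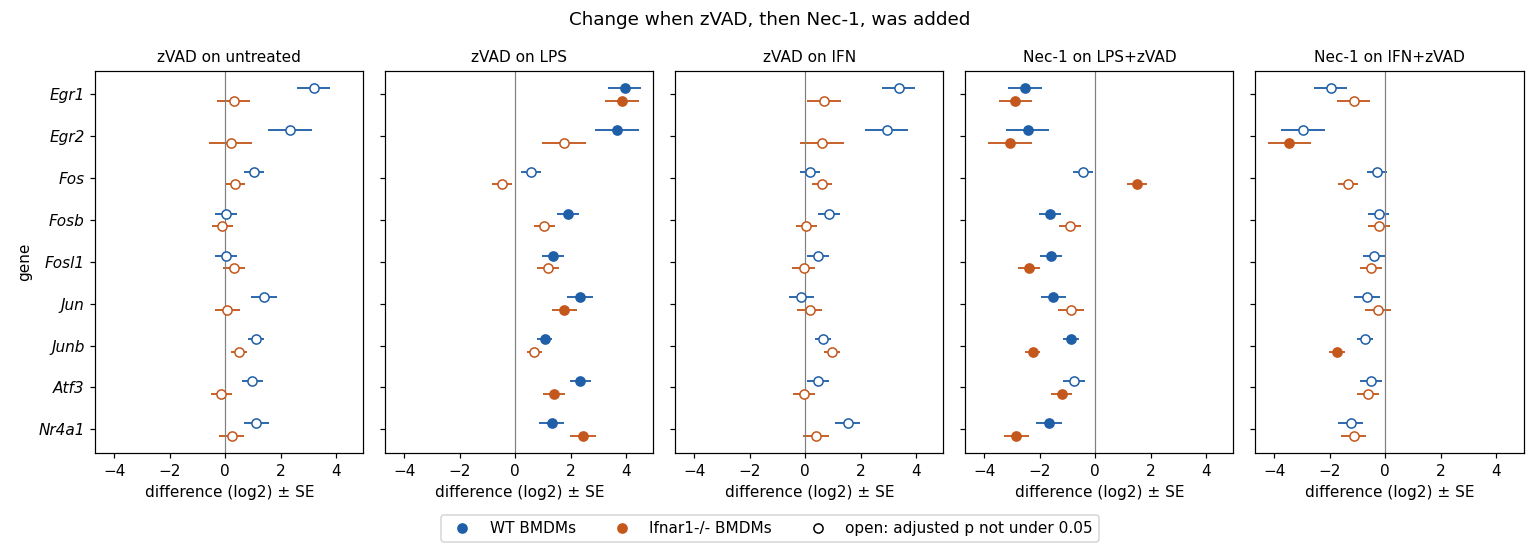
Change in log2 intensity (x axis, ± SE, 2 arrays against 2 in the fit of all 32 arrays) of the 9 tested genes (y axis) when zVAD was added to untreated, LPS or IFNβ-treated cells and when Nec-1 was added to LPS+zVAD or IFNβ+zVAD, for WT and Ifnar1-/- BMDMs; filled points have an adjusted p under 0.05. zVAD on LPS moved 8 WT genes up, Nec-1 moved 7 WT genes down, and Fos in Ifnar1-/- cells stands alone in rising with Nec-1, by 1.52.

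Nec-1 added to LPS+zVAD lowered 7 of the 9 genes in WT BMDMs, beside 9.86% of all genes called lower, with a median change of -1.59 against 0.02 for all genes. Egr1 fell to 10.87 and 10.97 (difference -2.53 ± 0.60, adjusted p = 0.00341), and Egr2 to 10.96 and 12.65 (-2.44 ± 0.78, adjusted p = 0.0238). Nr4a1 fell to 10.67 and 11.12 (-1.66 ± 0.46, adjusted p = 0.0106). Among AP-1 genes Fosb fell to 8.21 and 7.43 (difference -1.64 ± 0.39, adjusted p = 0.00329), Fosl1 to 6.65 and 6.62 (-1.59 ± 0.40, adjusted p = 0.00513), Jun to 13.18 and 14.17 (-1.51 ± 0.46, adjusted p = 0.0194) and Junb to 11.46 and 11.48 (-0.88 ± 0.28, adjusted p = 0.0225). All 9 genes were lower with Nec-1 on both slides, beside 39.4% of all genes.

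Atf3 read 16.11 and 16.75 with Nec-1 (difference -0.77 ± 0.39, adjusted p = 0.153, and 0.0324 with the replicate block), and Fos 11.76 and 11.61 (-0.45 ± 0.36, adjusted p = 0.417). Of the WT calls, only that of Fosl1 was made without each array in turn. Leaving out an array leaves its group with 1 array, so a call lost in this way need not rest on that array. Junb was not called without any 1 of the 4 arrays, although its change stayed between -0.86 and -0.90. Egr2 and Jun were not called without LPS+zVAD replicate 1 (0.134 and 0.0919), LPS+zVAD replicate 2 (0.0563 and 0.0642) or LPS+zVAD+Nec-1 replicate 1 (0.242 and 0.21). Egr1 was not called without LPS+zVAD replicate 1 (0.06), Nr4a1 without LPS+zVAD replicate 2 (0.0526) or LPS+zVAD+Nec-1 replicate 1 (0.0857), nor Fosb without LPS+zVAD+Nec-1 replicate 2 (0.0657). Limma on only these 4 arrays called 0 of the 9 (adjusted p from 0.051 for Fosl1). The share of all genes called in that smaller fit is not given here, so the count does not set the 9 apart.

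The level left under Nec-1 was set against LPS alone. No group of either genotype had Nec-1 without zVAD. In the LPS and the IFNβ series alike, undoing of the zVAD change therefore cannot be told apart from an effect of Nec-1 by itself. In WT cells LPS+zVAD+Nec-1 differed from LPS in 0 of the 9 genes, beside 0.125% of all genes called in either direction, and 2 of the 9 had an unadjusted p under 0.05, against 6.59% of all genes (limma). The largest remaining difference was in Atf3, at 1.58 ± 0.39 (adjusted p = 0.158), which passed with the replicate block (0.0121). Egr1 remained 1.42 ± 0.60 above LPS alone (adjusted p = 0.651) and Fosl1 stood at -0.23 ± 0.40. These values do not show that the levels were equal.

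In Ifnar1-/- BMDMs Nec-1 added to LPS+zVAD lowered 6 of the 9 genes (7.58% of all genes were called lower) and raised 1, Fos (11.9% were called higher). Egr1 read 7.31 and 8.57, a difference of -2.88 ± 0.60 (adjusted p = 0.00282), Egr2 12.57 and 11.28, of -3.07 ± 0.78 (adjusted p = 0.0101), and Nr4a1 9.67 and 9.27, of -2.84 ± 0.46 (adjusted p = 0.000487). Junb read 10.15 and 9.53, a difference of -2.26 ± 0.28 (adjusted p = 3.98e-05), and Fosl1 6.68 and 5.66, the second not well above background, of -2.40 ± 0.40 (adjusted p = 0.000564). Atf3 read 15.49 and 15.50, a difference of -1.21 ± 0.39 (adjusted p = 0.0334), and Fosb differed by -0.90 ± 0.39 (adjusted p = 0.109, and 0.00293 with the replicate block). Without replicate 2 Fosb differed by -0.75 ± 0.48 (adjusted p = 0.386), and by -1.03 ± 0.25 (0.00883) with the block.

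The second of each pair of values is from the array that lacks the LPS response. Without it, 4 genes were called lower and 1 higher, beside 5.09% and 4.34% of all genes: Egr1 (difference -3.51 ± 0.71, adjusted p = 0.00432), Fosl1 (-1.89 ± 0.45, 0.0136), Junb (-1.96 ± 0.32, 0.000915), Nr4a1 (-2.64 ± 0.57, 0.00739) and Fos (1.91 ± 0.43, 0.00861), the group then being 1 array assumed to vary like the others. Egr2 (-2.42 ± 0.94, adjusted p = 0.121) and Atf3 (-1.22 ± 0.48, 0.129) were not called. Of the remaining arrays, leaving out LPS+zVAD replicate 1 lost Egr1 (0.0598), Egr2 (0.0729) and Atf3 (0.136), LPS+zVAD replicate 2 lost Egr2 (0.0501), Atf3 (0.125) and Fos (0.063), and LPS+zVAD+Nec-1 replicate 1 lost Atf3 (0.0707) and Fos (0.0532). Fosl1, Junb and Nr4a1 were called without each of the 4 arrays, but limma on only those arrays called 0 of the 9 (adjusted p from 0.141 for Nr4a1). For that smaller fit too, the share of all genes called is not given here.

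Against LPS alone, Ifnar1-/- cells with LPS+zVAD+Nec-1 were lower in 1 of the 9 genes, Junb, by -1.57 ± 0.28 (adjusted p = 0.00233), beside 5.03% of all genes called lower. The LPS arrays read 11.25 and 11.58 for Junb. Without the array lacking the LPS response the difference was -1.27 ± 0.32 (adjusted p = 0.0556). With the replicate block Fos (1.06 ± 0.20, adjusted p = 0.0021) and Fosl1 (-1.23 ± 0.37, 0.024) were called as well. Without that array the block gave 1.14 ± 0.26 for Fos (adjusted p = 0.0155) and -0.53 ± 0.37 for Fosl1 (0.485), and without the block 0 of the 9 were called (limma), Fos standing at 1.45 ± 0.43 (0.113) and Fosl1 at -0.72 ± 0.45 (0.636).

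Fos departed from the other genes in the LPS series, and it did so differently in the 2 genotypes. In WT cells it stayed between 11.46 and 12.17 on all 6 arrays that had LPS. In Ifnar1-/- cells it was 11.88 and 11.75 with LPS and 11.52 and 11.18 with LPS+zVAD. Once Nec-1 was present it was 13.26 and 12.49, a rise of 1.52 ± 0.36 over LPS+zVAD (limma, adjusted p = 0.00712). The mean with Nec-1, 12.88, was near the 13.01 of untreated Ifnar1-/- cells, and LPS alone changed Fos by -1.19 there. Both arrays with Nec-1 had lower medians over the LPS-raised genes (1.45 and 0.03) than the other Ifnar1-/- arrays given LPS. A Nec-1 effect on Fos and a weaker LPS response of this group cannot be told apart. The change with Nec-1 differed between the genotypes by 1.97 ± 0.51 (Ifnar1-/- minus WT, adjusted p = 0.0214), and by 2.36 ± 0.55 (adjusted p = 0.0173) without the array lacking the LPS response. Junb was the other gene whose Nec-1 change differed, by -1.38 ± 0.39 (adjusted p = 0.0325), and by -1.08 ± 0.41 (adjusted p = 0.148) without that array. Among all genes 9.85% were called in this test. The Fos difference was not called without WT LPS+zVAD replicate 2 (0.068), WT LPS+zVAD+Nec-1 replicate 2 (0.0702) or Ifnar1-/- LPS+zVAD replicate 2 (0.0921), and the Junb difference was called only without Ifnar1-/- LPS+zVAD+Nec-1 replicate 1 among the 8 arrays (otherwise 0.0537 to 0.148).

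zVAD alone raised none of the 9 genes past the threshold in WT BMDMs, but 1 gene of all those tested was called (0.00624%). By limma, 7 of the 9 had an unadjusted p under 0.05, against 5.59% of all genes, and the median change was 1.11 against -0.03 for all genes. On both slides 7 of the 9 were higher, beside 31.1% of all genes, the exceptions being Fosb and Fosl1. Egr1 read 7.10 and 8.87 untreated and 11.18 and 11.16 with zVAD, a difference of 3.18 ± 0.60 (adjusted p = 0.115). The untreated replicates were 1.77 apart. Egr2 read 11.44 and 11.58 and then 13.25 and 14.42 (2.33 ± 0.78, adjusted p = 0.636), Jun 12.79 and 13.57 and then 14.23 and 14.93 (1.40 ± 0.46, 0.636), Junb 9.43 and 9.62 and then 10.55 and 10.71 (1.11 ± 0.28, 0.378) and Fos 12.70 and 12.83 and then 13.53 and 14.04 (1.02 ± 0.36, 0.661). Egr1 passed with the replicate block (0.0375), with array weights (0.0349) and in the fit without both Ifnar1-/- LPS+zVAD+Nec-1 arrays (0.0314).

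In Ifnar1-/- cells zVAD alone gave a median change of 0.23 over the 9 genes, and 0 of the 9, like 0% of all genes, were called, with 0 of the 9 at an unadjusted p under 0.05 against 0.374% of all genes (limma). Egr1 read 8.71 and 8.78 untreated and 9.22 and 8.90 with zVAD (0.31 ± 0.60), and 6 of the 9 genes were higher on both slides, beside 25.3% of all genes. The difference between the genotypes in the zVAD change was called for 0 of the 9 and for 0% of all genes, with 1 of the 9 at an unadjusted p under 0.05 against 1.03% of all genes (limma), Egr1, at -2.87 ± 0.85.

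zVAD added to IFNβ called 0 of the 9 genes in WT BMDMs and 0% of all genes, although 5 of the 9 had an unadjusted p under 0.05, against 3.98% of all genes (limma), and 8 were higher on both slides, beside 30.6% of all genes. Egr1 read 8.48 and 9.55 with IFNβ and 11.94 and 12.83 with IFNβ+zVAD (3.37 ± 0.60, adjusted p = 0.0866), a step close in size to that on LPS. It was called with the replicate block (0.0175), without IFNβ replicate 2 (0.047) and without IFNβ+zVAD replicate 1 (0.038). Egr2 read 9.83 and 11.81 and then 12.43 and 15.06 (2.93 ± 0.78, adjusted p = 0.559), and was called without IFNβ+zVAD replicate 1 (0.038). Nr4a1 read 10.39 and 11.97 and then 11.96 and 13.45 (1.53 ± 0.46, adjusted p = 0.79). For these 3 genes replicate 1 was below replicate 2 in both groups, and the levels of the groups overlap for Nr4a1 and do not for Egr1 and Egr2.

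Jun and Atf3 behaved differently on IFNβ. Their WT means with IFNβ alone were 15.22 and 16.67, beside 12.85 and 14.86 with LPS alone and 15.19 and 17.21 with LPS+zVAD. The zVAD steps on IFNβ and on LPS thus began at different levels, and the part of this was not tested. Jun read 15.18 and 15.26 with IFNβ and 14.60 and 15.55 with IFNβ+zVAD, and Atf3 16.28 and 17.06 and then 16.58 and 17.66, with changes of -0.14 ± 0.46 and 0.45 ± 0.39. The zVAD step in LPS exceeded the zVAD step in IFNβ by 2.48 ± 0.66 for Jun (limma, adjusted p = 0.0146) and by 1.90 ± 0.54 for Atf3 (adjusted p = 0.0228). These were the only 2 of the 9 called in WT cells, beside 16.3% of all genes, and a count this small does not set the 9 apart. With the replicate block Fosb was called as well (1.06 ± 0.29, adjusted p = 0.0108). Jun was not called without IFNβ+zVAD replicate 1 (0.0737). Atf3 was not called without that array (0.123), LPS replicate 2 (0.0948), IFNβ replicate 2 (0.104), LPS+zVAD replicate 1 (0.0505) or LPS+zVAD replicate 2 (0.0603).

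In Ifnar1-/- cells zVAD on IFNβ called 0 of the 9 genes, with 1 of the 9 at an unadjusted p under 0.05 against 2.35% of all genes (limma) and 0.00624% of all genes called. On both slides 6 of the 9 were higher, beside 26.6% of all genes. Egr1 read 8.71 and 8.81 and then 9.50 and 9.38 (0.68 ± 0.60). The zVAD step in LPS minus that in IFNβ was 3.16 ± 0.85 for Egr1 (adjusted p = 0.062), with 0 of the 9 and 1.95% of all genes called, and 6 of the 9 at an unadjusted p under 0.05 against 13.2% of all genes (limma). With the replicate block 5 of the 9 were called, Egr1 (0.0252), Nr4a1 (2.06 ± 0.45, 0.0117), Atf3 (1.46 ± 0.39, 0.033), Fosb (1 ± 0.29, 0.0452) and Fos (-1.08 ± 0.29, 0.0334), and without both Ifnar1-/- LPS+zVAD+Nec-1 arrays Egr1 alone was (0.0337). For these 2 fits the share of all genes called is not given here, and the counts do not set the 9 apart. The genotypes' zVAD steps on IFNβ differed for 0 of the 9 genes (0.00624% of all), with 2 of the 9 at an unadjusted p under 0.05 against 1.38% of all genes (limma).

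Nec-1 added to IFNβ+zVAD called 0 of the 9 genes in WT BMDMs and 0% of all genes, with 4 of the 9 at an unadjusted p under 0.05 against 3.87% of all genes (limma) and 7 lower on both slides, beside 23.3% of all genes. Egr1 read 9.60 and 11.24 under Nec-1 (difference -1.96 ± 0.60, adjusted p = 0.882) and Egr2 9.79 and 11.77 (-2.96 ± 0.78, adjusted p = 0.882). Without IFNβ+zVAD+Nec-1 replicate 2 both were called (0.0484 and 0.0291), as was Jun (-1.72 ± 0.39, 0.0296). Against IFNβ alone 0 of the 9 differed, beside 0.0125% of all genes, with 1 of the 9 at an unadjusted p under 0.05 against 7.13% of all genes (limma), and without that array Jun was called (-1.86 ± 0.39, adjusted p = 0.0145).

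In Ifnar1-/- BMDMs Nec-1 added to IFNβ+zVAD lowered 2 of the 9 genes, beside 0.542% of all genes called lower. Egr2 went from 14.82 and 14.59 to 11.35 and 11.13, a difference of -3.46 ± 0.78 (adjusted p = 0.0248), and Junb from 11.02 and 11.15 to 9.27 and 9.45, a difference of -1.73 ± 0.28 (adjusted p = 0.00356). Both Nec-1 levels were below all other Ifnar1-/- levels of the gene outside the Nec-1 groups, untreated cells included (Egr2 14.28 and 13.96, Junb 9.81 and 10.25). Without any 1 of the 4 arrays Egr2 was not called (0.12 to 0.165), and neither was Junb without IFNβ+zVAD replicate 2 (0.059) or IFNβ+zVAD+Nec-1 replicate 1 (0.0621). Fos differed by -1.33 ± 0.36 (adjusted p = 0.0788), and passed with the replicate block (0.00158). The difference from IFNβ alone was called for 0 of the 9, beside 1.49% of all genes, with 2 of the 9 at an unadjusted p under 0.05 against 9.32% of all genes (limma). Egr2 stood at -2.87 ± 0.57 with the replicate block, under which it passed (adjusted p = 0.00712, against 0.0802 without the block). The difference between the genotypes in the Nec-1 change on IFNβ+zVAD was called for 0 of the 9 and 0.00624% of all genes, and 1 of the 9 had an unadjusted p under 0.05, against 5.33% of all genes (limma). That gene was Junb, at -0.99 ± 0.39 (Ifnar1-/- minus WT), and Fos stood at -1.05 ± 0.51.

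The stimuli alone, at 6 h, moved the genes in both directions. In WT cells LPS raised 3 of the 9 (16.1% of all genes were called higher) and lowered 1 (25.6% lower). Junb rose by 1.77 ± 0.28 (adjusted p = 5.58e-05), Fosl1 by 1.27 ± 0.40 (adjusted p = 0.0151) and Egr1 by 1.52 ± 0.60 (adjusted p = 0.0489), while Fos fell by 1.18 ± 0.36 (adjusted p = 0.0132), from 12.70 and 12.83 to 11.46 and 11.71. Only the Junb call was made without each array in turn. Without untreated replicate 1 Egr1 was not called (0.497), without untreated replicate 2 neither Fos (0.0748) nor Fosl1 (0.156), without LPS replicate 1 none of Egr1 (0.0911), Fos (0.0889) and Fosl1 (0.0536), and without LPS replicate 2 neither Egr1 (0.19) nor Fosl1 (0.0665).

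In Ifnar1-/- cells LPS raised Junb by 1.38 ± 0.28 (adjusted p = 0.00128) and Fosl1 by 1.13 ± 0.40 (adjusted p = 0.0435), 2 of the 9 genes beside 10.6% of all genes. It lowered 2, beside 14.6% of all genes, Egr1 from 8.71 and 8.78 to 6.92 and 7.04 (-1.77 ± 0.60, adjusted p = 0.0363) and Fos from 13.36 and 12.66 to 11.88 and 11.75 (-1.19 ± 0.36, adjusted p = 0.0203). Egr1 thus had opposite signs in the LPS response of the 2 genotypes, and the difference between them was not tested. Without any 1 of the 4 arrays neither Egr1 (0.113 to 0.145) nor Fosl1 (0.0581 to 0.28) was called, and Fos was not called without untreated replicate 1 (0.214), LPS replicate 1 (0.072) or LPS replicate 2 (0.106). With the replicate block Atf3 (-1.04 ± 0.28, adjusted p = 0.00631) and Jun (-1.04 ± 0.35, adjusted p = 0.026) were called lower too.

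IFNβ raised 3 of the 9 genes in WT cells, beside 13.5% of all genes. Junb rose by 1.82 ± 0.28 (adjusted p = 5.07e-05) from 9.43 and 9.62 to 11.24 and 11.45, Jun by 2.04 ± 0.46 (adjusted p = 0.00198) from 12.79 and 13.57 to 15.18 and 15.26, and Atf3 by 1.65 ± 0.39 (adjusted p = 0.00243) from 14.74 and 15.30 to 16.28 and 17.06. All 3 were called without each array in turn. In Ifnar1-/- cells IFNβ called 0 of the 9 and 0% of all genes, with 0 of the 9 at an unadjusted p under 0.05 against 1.59% of all genes (limma), and the changes lay between -0.24 and 0.54.

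Egr3 and Fosl1 were the dim genes. Egr3, a relative of Egr1 and Egr2, was well above background on 8 of 32 arrays, and its values ran from 2.25 to 6.67. Both zVAD arrays (3.87 and 5.42) and both LPS+zVAD arrays (3.96 and 4.56) of WT cells were among the 8, as was 1 of 2 arrays of each of WT untreated, WT LPS, Ifnar1-/- LPS and Ifnar1-/- zVAD cells. Fosl1 was above background on 30 arrays and was below that level on 1 array of each Ifnar1-/- group given Nec-1. The other 8 genes were above background on all 32 arrays.

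Over the 16 group means the genes did not form 1 block. The closest pairs were Jun with Atf3 (Pearson r = 0.86) and Egr1 with Nr4a1 (0.85), followed by Egr1 with Atf3 (0.74), while Egr1 and Egr2 had an r of 0.29. Fos ran against Fosl1 (-0.56) and Junb (-0.52) and had no r above 0.34 with any gene. These are descriptions over 16 means that share slides and controls. The mean standardized level of the 9 genes was highest in WT LPS+zVAD (1.48), Ifnar1-/- LPS+zVAD (0.95) and WT IFNβ+zVAD (0.81), and lowest in untreated WT cells (-0.86). The other genes most like this mean profile over the 16 groups were Dot1l, a histone methyltransferase gene (r = 0.93), Plk2, a kinase gene (0.91), Dusp4, which encodes a MAP kinase phosphatase (0.89), Zbtb10 (0.88) and Basp1 (0.88). Without the array lacking the LPS response each r between 2 of the 9 genes moved by at most 0.05, the mean level in Ifnar1-/- LPS+zVAD+Nec-1 went from -0.61 to -0.42, and the genes most like the profile were Dot1l (0.93), Plk2 (0.90), Zbtb10 (0.90), D630024D03Rik (0.88) and Mdm2 (0.88).

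**Figure D3:**
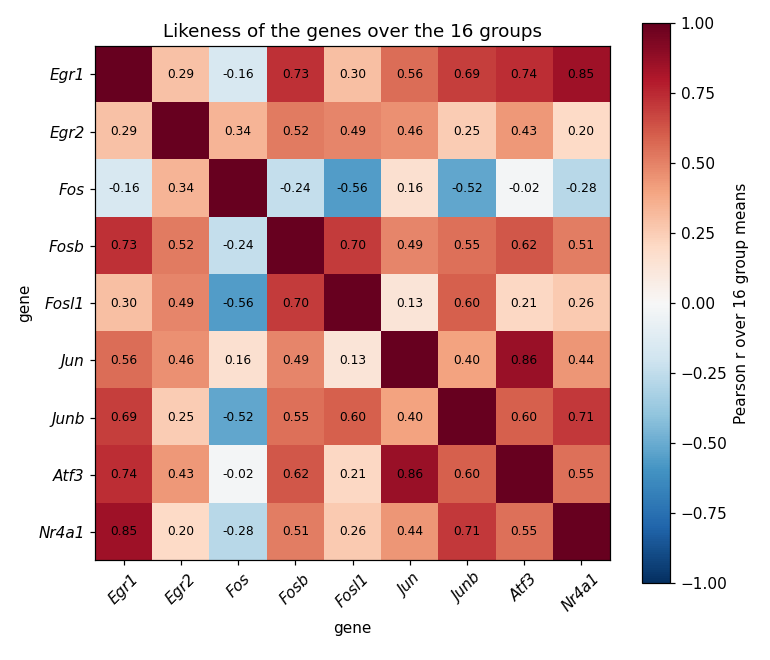
Pearson correlation (colour and printed value) between each pair of the 9 tested genes, listed on both axes, over the 16 group means of log2 intensity. Jun with Atf3 (0.86) and Egr1 with Nr4a1 (0.85) are the highest, and the row of Fos holds the negative values.

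Genes around the 10 were described by lists from general knowledge, chosen with earlier results of these data known, with the counts and median of each list. With zVAD on LPS, 12.9% of all genes were called higher and 21.7% lower in WT cells (median -0.04), and 4.75% and 3.77% in Ifnar1-/- cells (median -0.06). With Nec-1 on LPS+zVAD, 18.5% were called higher and 9.86% lower in WT cells (median 0.02), and 11.9% and 7.58% in Ifnar1-/- cells (median 0.08). Of 22 tested other immediate early genes, zVAD on LPS raised 10 and lowered 5 in WT cells (median 0.67), the latter a share close to that of all genes, and raised 6 and lowered 1 in Ifnar1-/- cells (median 0.75). Arc, a regulator of synaptic strength best known in neurons, rose by 5.01 ± 0.41 in WT cells (adjusted p = 9.48e-08), Csrnp1 by 4.32 ± 0.42, Klf4 by 3.81 ± 0.42 and Klf2 by 1.94 ± 0.27, and all 4 rose in Ifnar1-/- cells as well, Klf2 by 4.56 ± 0.27. Nec-1 on LPS+zVAD lowered 9 and raised 5 of the 22 in WT cells (median -0.41), and lowered 11 and raised 1 in Ifnar1-/- cells (median -1.43), with a change of -3.30 ± 0.41 for Arc in WT cells and of -4.52 ± 0.42 for Csrnp1 in Ifnar1-/- cells. Without the array lacking the LPS response the Ifnar1-/- counts were 8 lower and 1 higher (median -0.77), and Csrnp1 changed by -4.17 ± 0.51. Id1, an inhibitor of basic helix-loop-helix factors, rose with Nec-1 by 2.27 ± 0.39 in WT and 2.18 ± 0.39 in Ifnar1-/- cells (2.10 ± 0.48 without that array).

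Of 13 AP-1 and EGR partners and cofactors, 2 rose and 2 fell with zVAD on LPS in WT cells (median -0.08) and 1 rose and 1 fell in Ifnar1-/- cells (median -0.55), counts close to those of all genes. With Nec-1, 2 rose and 1 fell in WT cells (median 0.22), beside 18.5% and 9.86% of all genes. In Ifnar1-/- cells 3 rose and 1 fell (median -0.25, and 0.10 without the array lacking the LPS response), beside 11.9% and 7.58%. Mafk, a small MAF protein that pairs with other bZIP factors, rose by 3.57 ± 0.24 in WT (adjusted p = 1.80e-08) and 2.97 ± 0.24 in Ifnar1-/- cells (adjusted p = 6.38e-07), and with Nec-1 changed by -2.16 ± 0.24 and -2.45 ± 0.24 (-2.72 ± 0.28 in Ifnar1-/- cells without that array). Maf moved the other way, by -2.47 ± 0.37 with zVAD and 2.59 ± 0.37 with Nec-1 in WT cells, as did Nab2, a corepressor of EGR proteins, at -2.10 ± 0.30 and 1.64 ± 0.30 in WT cells.

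Of 10 factors that act at the serum response element or the CRE, 3 rose and 2 fell with zVAD on LPS in WT cells (median 0.24), and 1 rose and 2 fell in Ifnar1-/- cells (median 0.02). Counts this small do not set the list apart from all genes. With Nec-1, 4 fell (Crem, Mkl2, Elk4 and Creb1) and 1 rose in WT cells (median -0.38), beside 9.86% and 18.5% of all genes. In Ifnar1-/- cells 1 fell and 1 rose (median -0.19, and -0.53 without the array lacking the LPS response), beside 7.58% and 11.9%. Crem, which encodes CRE modulators including the repressor ICER, rose by 2.87 ± 0.34 in WT cells (adjusted p = 3.71e-06), while Srf, whose product binds the CArG box, changed by -1.18 ± 0.20 in WT and -0.71 ± 0.20 in Ifnar1-/- cells. With Nec-1 in WT cells Crem changed by -1.71 ± 0.34 and Srf by 0.83 ± 0.20.

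Of 18 AP-1 or EGR target genes, 7 rose and 3 fell with zVAD on LPS in WT cells (median 0.78), beside 12.9% and 21.7% of all genes. The share that fell was not above that of all genes. In Ifnar1-/- cells 4 rose (median 0.27), beside 4.75% of all genes. Plau, which encodes urokinase, rose by 7.31 ± 0.59 in WT (adjusted p = 8.20e-08) and 4.86 ± 0.59 in Ifnar1-/- cells (adjusted p = 5.40e-05), and Hbegf, a growth factor of the EGF family, by 7.18 ± 0.54 and 4.10 ± 0.54. F3, which encodes tissue factor, rose by 6.17 ± 0.71 and 2.97 ± 0.71, while Timp1, a metalloprotease inhibitor, changed by -3.37 ± 0.27 in WT cells. Nec-1 lowered 7 and raised 1 of the 18 in WT cells (median -0.46), beside 9.86% and 18.5% of all genes. It lowered 12 and raised 1 in Ifnar1-/- cells (median -2), beside 7.58% and 11.9%. Without the array lacking the LPS response the Ifnar1-/- counts were 7 lower and 0 higher (limma, median -1.35), beside 5.09% and 4.34% of all genes, with Hbegf at -5.48 ± 0.67 and Plau at -4.94 ± 0.59.

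**Figure D4:**
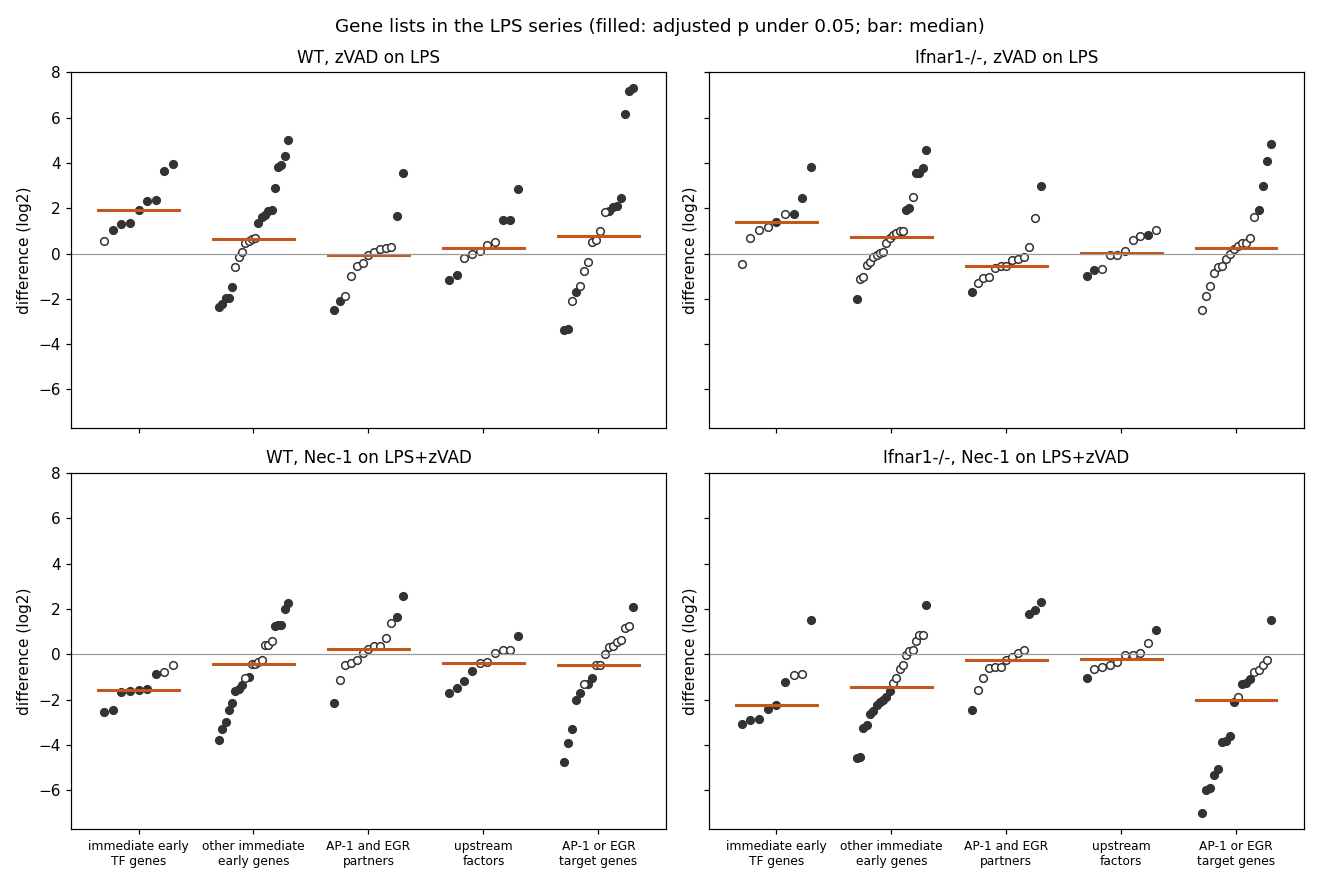
Change in log2 intensity (y axis) with zVAD on LPS (top) and Nec-1 on LPS+zVAD (bottom) in WT (left) and Ifnar1-/- (right) BMDMs, for the 9 tested immediate early transcription factor genes and 4 other gene lists (x axis); each point is a gene, filled where the adjusted p is under 0.05, and bars are medians. In WT cells the 9 genes lie above 0 with zVAD (median 1.91) and below 0 with Nec-1 (median -1.59), while each other list holds genes that moved both ways.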

How the data were processed

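Total RNA of BMDMs was measured on one-colour Agilent whole-genome mouse arrays. The deposited scanner intensities were processed by the authors' scanner software, with local background subtraction and detrending, and its flags give whether a spot is an outlier or well above background; the deposited table of log2 values, which the authors processed with limma, was used as an alternative. Intensities were taken to log2, outlier spots (130 to 499 per array) left out, arrays quantile-normalized, spots averaged per probe, and probes kept that were well above background on at least 50% of arrays. The brightest probe stood for a gene. The 44.5% to 78.1% of probes above background, and 2 arrays per group, limit the precision.

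All 16 group means were fitted with limma 3.58.1 (R 4.3.3) with 16 residual degrees of freedom, 25 contrasts were taken, and p-values were adjusted by Benjamini-Hochberg within each contrast. The script was tested on simulated data. Arrays of the same replicate number share a slide, and their deviations correlated in all 28 pairs of treatments in each genotype (r 0.32 to 0.67 in WT, 0.17 to 0.58 in Ifnar1-/- cells), so the slide was also fitted as a replicate block. Every member was named, and of each other list up to 5 called genes per comparison with the smallest adjusted p. The members and lists were chosen with earlier results of these data known. Promoters matched 7 of 10 members by symbol.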

Additional observations from a re-analysis of the deposited data

Results flagged for a closer look

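Changes in 4 genes differed between conditions by a test of the difference itself. The change with Nec-1 on LPS+zVAD differed between Ifnar1-/- and WT BMDMs by 1.97 for Fos and by -1.38 for Junb on the log2 scale (Ifnar1-/- minus WT). With Nec-1, Fos had a mean of 12.88 in Ifnar1-/- cells, near the 13.01 of untreated Ifnar1-/- cells. A weaker LPS response of that group cannot be told apart from an effect of Nec-1 on Fos. In WT BMDMs the change with zVAD was larger on LPS than on IFNβ by 2.48 for Jun and by 1.90 for Atf3, and IFNβ alone had already raised both. Among all genes, 9.85% were called in the comparison of genotypes and 16.3% in that of LPS with IFNβ (limma). Over the alternative settings the Fos difference was no longer called in 5 of 18, Junb in 13 of 17, Jun in 2 of 18 and Atf3 in 6 of 18. Without the array lacking the LPS response the Fos difference was 2.36 (adjusted p = 0.0173, limma) and the Junb difference -1.08 (0.148).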

How the results depend on the processing

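Under alternative settings 67 changes of single genes were recomputed 952 times in all. Of these, 772 kept direction and side of the threshold, 136 kept direction but were no longer called, 44 came to be called and none reversed. The 67 are the changes called in the main fit and others picked by name, not every change of the 9 genes in the 25 contrasts. Changes outside the 67 also came to be called, as for Nr4a1 in the zVAD step on LPS against IFNβ in Ifnar1-/- cells. The counts below are of the 9 tested genes called. The share of all genes called under each setting is not given here, so a changed count is not a result about these 9 genes in particular. A shift to the 75th percentile in place of quantile normalization gave 1 for Nec-1 on IFNβ+zVAD in Ifnar1-/- cells (against 2) and 1 for the genotype difference in Nec-1 on LPS+zVAD (against 2). It moved the median of all genes by over 0.1 in 6 comparisons, most with LPS in WT cells, from -0.09 to 0.10. Normexp gave 1 for that genotype difference and 1 for zVAD on IFNβ in WT cells (against 0). No filter on dim probes gave 1 and 1 for the same pair, and 2 for LPS in Ifnar1-/- cells (against 4). The stricter filter gave 2 for LPS+zVAD+Nec-1 against LPS in Ifnar1-/- cells (against 1). Only the arrays compared gave 0 there, 0 for Nec-1 on LPS+zVAD in WT and in Ifnar1-/- cells (against 7 and 7), 0 for Nec-1 on IFNβ+zVAD in Ifnar1-/- cells, 0 for its genotype difference on LPS+zVAD, 0 for the zVAD step on LPS against IFNβ in WT cells (against 2), 5 for that step in Ifnar1-/- cells (against 0) and 7 for LPS in Ifnar1-/- cells. Without both Ifnar1-/- LPS+zVAD+Nec-1 arrays, 1 was called for zVAD in WT cells (against 0) and 1 for the zVAD step on LPS against IFNβ in Ifnar1-/- cells. Array weights gave 1 for zVAD in WT cells, 8 for zVAD on LPS (against 4), 4 for Nec-1 on LPS+zVAD, 4 for the zVAD step on LPS against IFNβ and 1 for IFNβ+zVAD+Nec-1 against IFNβ (against 0) in Ifnar1-/- cells, and 0 for the genotype difference in Nec-1. The authors' processed values gave 2 for LPS in WT cells (against 4), 1 for Nec-1 on IFNβ+zVAD and 0 for LPS+zVAD+Nec-1 against LPS in Ifnar1-/- cells, and 1 for the genotype difference in Nec-1.

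With the slide as a replicate block, 1 was called for each of zVAD, zVAD on IFNβ and LPS+zVAD+Nec-1 against LPS in WT cells (against 0 each), 7 for zVAD on LPS, 3 for LPS+zVAD+Nec-1 against LPS, 1 for IFNβ+zVAD+Nec-1 against IFNβ and 5 for the zVAD step on LPS against IFNβ in Ifnar1-/- cells, and 1 for the genotype difference in zVAD on LPS. It changed no call of a tested gene beyond those given with the results. The block without the array lacking the LPS response, chosen after seeing the data, gave 2 for LPS+zVAD+Nec-1 against LPS in Ifnar1-/- cells (Fos and Junb) and 1, Fos, for the genotype difference in Nec-1 on LPS+zVAD. The cause of these shifts was not tested.

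With 1 array left out the counts ran from 1 to 3 for LPS in WT cells and 1 to 2 in Ifnar1-/- cells, 0 to 2 for zVAD on IFNβ, 0 to 3 for Nec-1 on IFNβ+zVAD (Egr1, Egr2 and Jun without IFNβ+zVAD+Nec-1 replicate 2), 0 to 1 for IFNβ+zVAD+Nec-1 against IFNβ (Jun, without the same array) and 3 to 5 for Nec-1 on LPS+zVAD in WT cells. In Ifnar1-/- cells they were 2 for zVAD on LPS, 4 to 5 for Nec-1 on LPS+zVAD, 0 to 1 for Nec-1 on IFNβ+zVAD and 0 to 2 for LPS+zVAD+Nec-1 against LPS, and they ran from 0 to 2 for the genotype difference in Nec-1 and for the zVAD step on LPS against IFNβ in WT cells. A group left with 1 array was assumed to vary like the others. Dim probes limit Egr3, which had no test.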
